A study of Mus musculus with 3 samples.

Results

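The 8 mouse genes of the GIMAP family (GTPases of the immunity-associated protein family) were examined: Gimap1, Gimap3, Gimap4, Gimap5, Gimap6, Gimap7, Gimap8 and Gimap9. They were chosen by name, as genes with a probe set that names a single gene in the array annotation, and all 8 of 8 were measured, out of 19938 genes with such a probe set. Each had 1 probe set of its own, and 0 probe sets named a GIMAP gene together with another gene. Total RNA was profiled in bone marrow-derived dendritic cells (BMDC) on 3 whole-transcript arrays, 1 array for each of 3 samples, which form 1 group. The cells came from marrow of C57BL/6J mice, an inbred strain, and were grown for 9 days from 2000000 plated cells per well, in 20 ng/ml GM-CSF plus 20 ng/ml IL-4. No genotype, treatment or time contrast is named, and whether the arrays stand for separate animals or cultures is not stated, so differences between arrays may be technical. The labels name no sort and no step that removed other marrow cells. The age of the animals is not given in the sources used here.

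GIMAP proteins are GTP-binding proteins that mostly sit on intracellular membranes, such as those of the endoplasmic reticulum, mitochondria and lysosomes. They are best known for the survival of T and B lymphocytes: loss of some members shortens the life of peripheral lymphocytes, and their RNA is abundant in lymphocytes. Expression has also been described in endothelial cells and blood progenitors, so a GIMAP signal alone does not name a cell type.

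All 8 genes lie side by side on mouse chromosome 6. In the RefSeq gene table (GRCm38.p6) the order was Gimap8, Gimap9, Gimap4, Gimap6, Gimap7, Gimap1, Gimap5 and Gimap3. Between the first and the last member the table held 10 genes, the 8 members, 1 pseudogene and 1 long non-coding RNA gene, and no other protein-coding gene. The table gives Gimap5 as an older name of Gimap3, and the probe sets were therefore matched by Entrez identifier, which agreed for 8 of 8. Family members are related in sequence. The probe sequences were not used here, and binding of one member's RNA to another's probes was not tested.

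The windows around the annotated starts are shown for the 3 members that differed most between arrays, described below, and for Gimap5, which stayed below background. Each RefSeq window (GRCm38.p6) holds 250 bases before the start and 50 bases from it on. Capitals mark matches on either strand to short letter strings that stand for motifs of factor families. The string was GGAAGT for ETS factors, TGTGGT for RUNX factors, CTTTGA for TCF/LEF factors and GTAAACA for FOXO factors. For the GATA factors the letters searched were AGATAA, for the STAT factors they were TTCNNNGAA, and for the TATA box they were TATAAA. Gimap6 is at chr6:48708195-48708494 on the minus strand, Gimap3 at chr6:48770802-48771101 on the minus strand, Gimap8 at chr6:48647111-48647410 on the plus strand and Gimap5 at chr6:48745947-48746246 on the plus strand.
Gimap6: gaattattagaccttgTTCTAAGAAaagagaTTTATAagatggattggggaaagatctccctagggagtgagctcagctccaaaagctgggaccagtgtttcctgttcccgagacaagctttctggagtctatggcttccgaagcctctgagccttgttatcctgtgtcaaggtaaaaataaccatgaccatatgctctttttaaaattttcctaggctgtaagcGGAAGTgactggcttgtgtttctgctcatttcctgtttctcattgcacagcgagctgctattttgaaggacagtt
Gimap3: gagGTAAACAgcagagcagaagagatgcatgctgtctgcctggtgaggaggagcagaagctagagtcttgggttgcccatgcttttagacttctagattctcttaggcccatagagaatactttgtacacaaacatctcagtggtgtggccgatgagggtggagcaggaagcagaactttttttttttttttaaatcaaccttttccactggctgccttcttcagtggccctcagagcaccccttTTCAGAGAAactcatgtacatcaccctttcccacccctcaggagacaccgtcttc
Gimap8: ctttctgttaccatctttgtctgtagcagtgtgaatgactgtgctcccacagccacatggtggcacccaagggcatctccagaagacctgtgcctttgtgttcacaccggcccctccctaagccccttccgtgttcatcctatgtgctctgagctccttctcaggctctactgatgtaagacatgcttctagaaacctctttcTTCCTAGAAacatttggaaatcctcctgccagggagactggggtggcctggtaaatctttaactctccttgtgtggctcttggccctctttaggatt
Gimap5: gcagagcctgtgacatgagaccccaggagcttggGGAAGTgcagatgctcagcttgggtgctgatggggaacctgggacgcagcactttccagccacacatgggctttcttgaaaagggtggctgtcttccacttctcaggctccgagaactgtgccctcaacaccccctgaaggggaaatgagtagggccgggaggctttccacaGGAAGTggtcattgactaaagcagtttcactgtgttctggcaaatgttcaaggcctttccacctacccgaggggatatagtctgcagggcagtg

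The 8 members had 9 such windows, since Gimap8 has 2 annotated starts, and the other Gimap8 window held 0 matches. The STAT letters occurred in 4 of the 9, in Gimap3, Gimap6, Gimap7 and 1 window of Gimap8, against 8.3% of 32851 mouse windows of the same length. With position 0 at the annotated start, they began at -234 in Gimap6, at -5 in Gimap3 and at -47 in Gimap8. The ETS letters occurred in 4 of 9 windows (Gimap1, Gimap5, Gimap6 and Gimap9), against 23.8%, and the RUNX letters in 3 of 9 (Gimap1, Gimap4 and Gimap7), against 16.8%. The TCF/LEF letters were in 2 of 9 (16.0% of all windows), and the FOXO letters (3.65%) and the TATA box letters (13.6%) in 1 of 9 each. The GATA letters were in 0 of 9 windows (11.2% of all). In Gimap7 the STAT match overlaps the TCF/LEF match. These are matches of letters in windows chosen with the expression values known and are given as a description only.

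To call a gene above background, its value had to exceed a limit in every array. The limit was the 95th percentile of 1205 probe sets for olfactory or vomeronasal receptors, genes of sensory neurons, taken for each array. The limits were 5.54, 5.54 and 5.55 log2 units in replicates 1, 2 and 3. Of the 8 members, 6 were above background, against 60.5% of all 19938 genes, which is not far from the members' share. Gimap7 was above the limit in 2 arrays and Gimap5 in 0. Probe sets bind with different strength, so values are compared between arrays and not between genes, and the SD is over 3 arrays.

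Gimap4, whose product speeds the death of T cells after an apoptotic signal, had 8.48, 8.23 and 8.01 log2 units in replicates 1, 2 and 3 (mean 8.24 ± 0.24, SD, n = 3). It exceeded the limit by 2.45 to 2.94 units. Gimap6, which binds the autophagy protein GABARAPL2, had 7.46, 7.22 and 6.56 (7.08 ± 0.46, SD, n = 3). Gimap3, a membrane-anchored member that acts with Gimap5 in T cell survival, had 7.19, 7.05 and 6.47 (6.91 ± 0.38, SD, n = 3). In each of these 3 genes replicate 1 was highest, replicate 2 next and replicate 3 lowest.

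Gimap1, which mature T and B cells need to survive, had 6.44 in replicates 1 and 2 and 6.21 in replicate 3 (6.37 ± 0.13, SD, n = 3). Gimap8, a large member with more than one GTPase domain, had 6.30, 6.22 and 5.71 (6.08 ± 0.32, SD, n = 3). Gimap9 had 5.76, 5.67 and 5.56 (5.66 ± 0.10, SD, n = 3), and in replicate 3 it exceeded the limit by 0.0062 units only. Gimap9 was thus the member just inside the limit.

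Gimap7, whose protein hydrolyses GTP as a dimer, was the member just outside, with 5.64, 5.64 and 5.16 (5.48 ± 0.28, SD, n = 3). It was above the limit by 0.11 and 0.098 units in replicates 1 and 2 and at -0.40 relative to it in replicate 3. Gimap5, whose loss in rodents depletes peripheral T cells, had 4.59, 4.59 and 4.21 (4.46 ± 0.22, SD, n = 3) and lay under the limit in every array. A value under the limit does not show that the RNA was absent. At a stricter limit, the 99th percentile of these receptors, 3 of 8 members were above background, Gimap3, Gimap4 and Gimap6, against 46.2% of all genes. A limit from 46 genes of other tissues, which other organs express, also left 3 of 8 (against 46.5%).

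**Figure D1:**
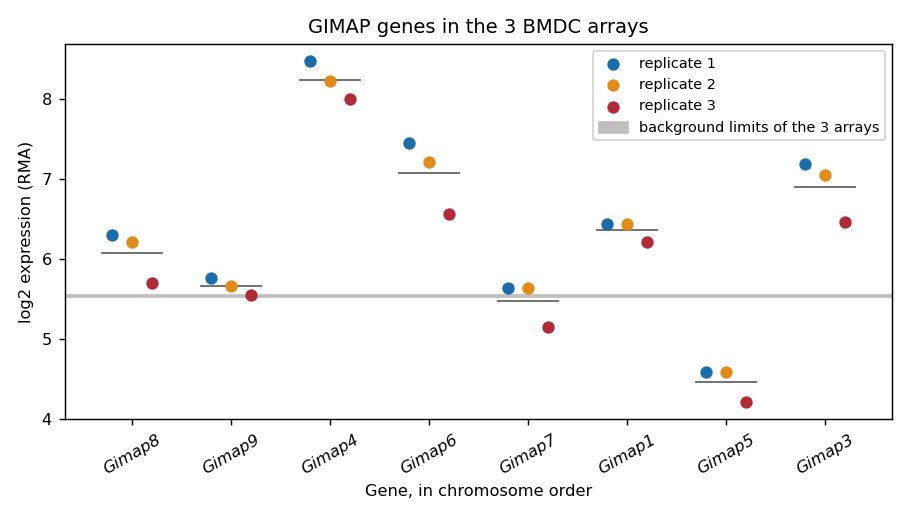
Log2 expression of the 8 GIMAP genes (horizontal axis, chromosome order) in the 3 BMDC arrays; points are single arrays, short lines the 3-array means and the grey band the background limits of 5.54 to 5.55. Replicate 3 is the lowest point of every gene, Gimap5 lies under the band in each array and Gimap7 in replicate 3.

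Every member was lowest in replicate 3. This held for 8 of 8 measured members, against 14.7% of all genes and 34.2% of the 8557 genes whose values were not identical in the 3 arrays. Over the members above background it was 6 of 6, against 20.2% of all genes above background and 37.8% of the 6455 of them that were not identical. Among genes above background with 3 different values it was 5 of 5 members, against 51.0% of 3026 genes. No member had 3 identical values, whereas 57.1% of all genes did. Identical values do not show that the RNA levels were equal. Gimap1 and Gimap5 had the same value in replicates 1 and 2. The other 6 members followed the order replicate 1, then 2, then 3. Of all genes 6.88% did so, a share taken over a total that includes the 57.1% with identical values, which can have no order. Gimap7 differed by only 0.0076 units between replicates 1 and 2. In bulk RNA, fewer cells of a type and less RNA per cell cannot be told apart.

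The size of the difference varied between members. Gimap6 was 0.90 log2 units (1.86-fold) higher in replicate 1 than in replicate 3, and 72 of 12067 genes above background (0.597%) had a larger difference in that direction. For Gimap3 the difference was 0.73 (1.65-fold) and for Gimap8 0.59 (1.51-fold), with 112 and 179 genes beyond them. These 3 of the 6 members above background differed by more than 0.5 units, as did 2.08% of all genes above background. Many of those genes had identical values. Among the genes above background with 3 different values, 248 of 3026 did so. At thresholds of 0.3 and 1 unit it was 4 of 6 (4.28% of all genes above background) and 0 of 6 (0.448%), and 0 of 6 were more than 0.5 units higher in replicate 3 (0.439%). Gimap4 differed by 0.47 units (1.39-fold), Gimap1 by 0.23 (1.17-fold) and Gimap9 by 0.21 (1.15-fold). Gimap7 and Gimap5, which were not above background in all arrays, differed by 0.49 and 0.37 units. Values near background can understate a difference, so the small value of Gimap9 does not show that this gene differed less in RNA. Gimap1 lay further over the limit in replicate 3 (0.66 units) than Gimap8 (0.16 units), and why it differed less was not tested.

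Replicates 1 and 2 were closer to each other. Over the 6 members above background the mean difference was 0.14 ± 0.10 log2 units (SD over 6 genes) between replicates 1 and 2, 0.38 ± 0.23 between 2 and 3, and 0.52 ± 0.27 (1.43-fold) between 1 and 3. The median between replicates 1 and 3 was 0.53 over these members and 0 over all genes above background. It was 0.031 over those with 3 different values. Between replicates 1 and 2, 0 of 6 differed by more than 0.5 units (0.182% of all genes above background), and between replicates 2 and 3 it was 3 of 6 (1.11%), namely Gimap3, Gimap6 and Gimap8. In Gimap4 and Gimap9 the difference was divided almost evenly, with 0.25 and 0.098 units between replicates 1 and 2 and 0.22 and 0.11 between 2 and 3, whereas Gimap1 differed between replicates 2 and 3 only. With 1 array per sample and 1 group, no test between arrays was possible, and members of a gene cluster are not replicates.

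**Figure D2:**
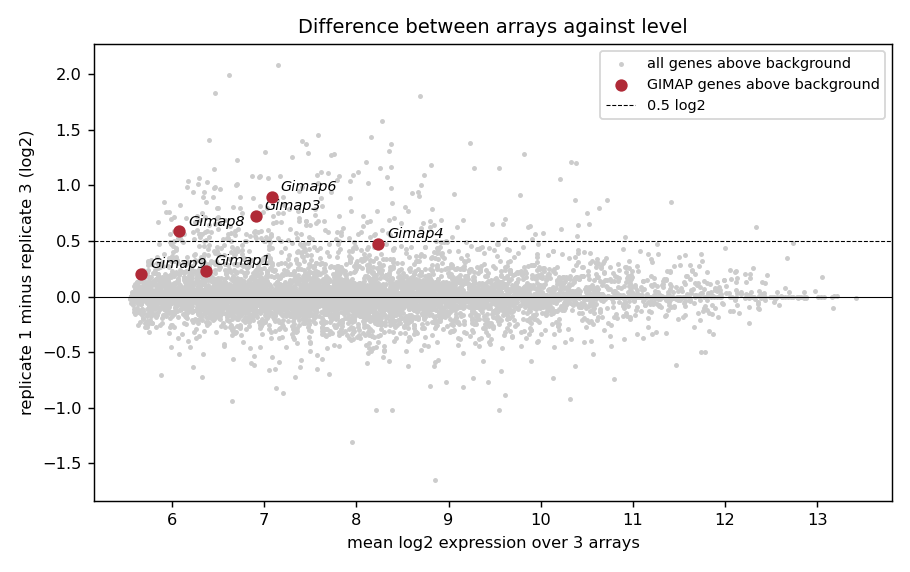
Difference of replicate 1 minus replicate 3 (log2, vertical axis) against mean log2 expression over the 3 arrays for 12067 genes above background (grey) and the 6 GIMAP genes among them (red). All 6 red points lie above 0, and Gimap3, Gimap6 and Gimap8 lie above the dashed line at 0.5.

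The dendritic identity of the cultures is given by the labels, and a list of dendritic genes was read beside it. All 11 of 11 genes of this list were above background, against 60.5% of all genes. Itgax, which encodes CD11c, had 11.91, 11.92 and 11.91, and the class II gene H2-Ab1 had 12.31, 12.36 and 12.42. Zbtb46, also of the list, had 6.36 in each array, close to the limit of 6.31 from genes of other tissues. The mean difference and the counts below are over the whole list. The mean difference of the 11 genes between replicates 1 and 3 was 0.0035 log2 units. Of the 8 that were not identical in the arrays 2 were lowest in replicate 3, against 37.8% of such genes above background. Members went both ways: Ccr7, the receptor that guides dendritic cells to lymph nodes, had 10.15, 10.50 and 9.74, which is 0.77 units higher in replicate 2 than in replicate 3. Housekeeping genes had a mean difference of 0.0076 over 9 of 9 genes above background (60.5% of all genes). Of the 6 that were not identical 3 were lowest in replicate 3 (37.8% of such genes above background).

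Markers of T cells were detected beside the family, and most were lowest in the same array. Of the T cell list, 12 of 13 measured genes were above background, against 60.5% of all genes. Lowest in replicate 3 were 9 of these 12, against 20.2% of all genes above background and 37.8% of those not identical. Of the 12, 2 were identical in the arrays. The mean difference of the 12 between replicates 1 and 3 was 0.49 ± 0.49 (SD over 12 genes), beside 0.52 over the GIMAP genes. Their median was 0.27, beside 0.53. Their summed linear signal over 13 genes was 2323, 1961 and 1471 in replicates 1, 2 and 3. Over the 8 GIMAP genes this sum was 974, 867 and 668.

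The T cell genes were not uniform. Cd3g, a chain of the T cell receptor complex, had 8.65, 8.22 and 7.44, and Cd3e, another chain, had 9.09, 8.79 and 8.15. Cd3d had 6.90, 6.47 and 6.10, Thy1, a surface glycoprotein of T cells, 8.27, 7.98 and 7.19, and the costimulatory receptor gene Cd28 7.46, 6.99 and 6.38. These 5 differed by 0.80 to 1.21 units between replicates 1 and 3. By contrast, Lat, an adaptor of receptor signalling, had 7.79 in each array, Cd247 had 6.12, 6.11 and 6.06, and Zap70, a kinase of the receptor, had 6.60, 6.49 and 6.30. Cd2 (5.62, 5.31 and 5.09) was above the limit in replicate 1 only. At the stricter 99th percentile limit, which was 6.33 in replicate 3, Cd3d, Cd247, Zap70 and Lef1 (6.04) also lay under it in that array. Cd247 lay under the stricter limits of replicates 1 and 2 as well, which were 6.28 and 6.24.

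Genes of natural killer and cytotoxic cells were also lowest in replicate 3 where they were detected. Of this list 9 of 12 were above background, against 60.5% of all genes. All 9 were lowest in replicate 3, against 37.8% of genes above background that were not identical. Their mean difference between replicates 1 and 3 was 0.96 ± 0.40 (SD over 9 genes), beside 0.52 over the GIMAP genes. Whether the lists differ from the family was not tested. Nkg7, a granule membrane protein, had 10.38 in replicate 1 and 9.10 in replicate 3, and Eomes, a transcription factor of cytotoxic lymphocytes, had 8.55, 8.31 and 7.53. Ctsw, a cysteine protease of cytotoxic cells, had 8.75, 8.42 and 7.60, and the receptor gene Klrb1c had 6.51, 6.45 and 5.94. The granzyme gene Gzma had 10.89, 10.42 and 9.68. The natural killer receptor genes Ncr1 (4.23), Klrd1 (4.89) and Klrk1 (4.52) lay below background and were identical in the arrays. The summed signal of the 12 genes was 7247, 5666 and 3248.

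B cell markers were mostly below background. Of 9 measured genes 3 were above background, against 60.5% of all genes. The 3 were Cd22, a surface lectin, Cd79b, a chain of the B cell receptor, and Pax5, the factor that fixes B cell fate. Their mean difference between replicates 1 and 3 was 0.061 units. The 2 genes that were not identical in the arrays were both lowest in replicate 3, against 37.8% of such genes above background. Cd22 had 8.53, 8.54 and 8.52, Cd79b had 6.41, 6.40 and 6.23 and Pax5 had 5.64 in each array. Pax5 exceeded the limit by 0.083 to 0.098 units only. Ms4a1 (3.80), which encodes CD20, and Cd79a (4.59, 4.59 and 4.26) lay below background, and the summed signal was 665, 660 and 642.

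The other cell types known to express GIMAP genes gave mixed values. Of 10 endothelial genes 6 were above background, which is near the 60.5% of all genes. Their mean difference between replicates 1 and 3 was 0.012 units, with single genes from -0.28 to 0.16. Of the 4 that were not identical 3 were lowest in replicate 3, against 37.8% of such genes above background. The highest of the endothelial genes, Pecam1, had 6.33, 6.33 and 6.16. In replicate 3 it lay under the limit of 6.31 from genes of other tissues. The defining gene Kdr lay below background at 5.16 in each array. Cdh5, the cadherin of endothelial junctions, had 5.91, 5.91 and 5.86, and the summed signal of the endothelial list was 480, 482 and 473. Of 8 measured stem and progenitor genes 3 were above background, against 60.5% of all genes. Of these 3, Cd34 had 6.66, 6.23 and 5.93 and Gata2 had 6.99, 6.99 and 6.42, whereas Procr had 8.24, 8.59 and 8.86. Kit, the stem cell factor receptor, lay below background at 5.22, and the summed signal of that list was 704, 761 and 780. That sum rose as Procr did, whose signal was the largest of the list. The mean difference of the 3 genes above background was 0.22 ± 0.74 between replicates 1 and 3 (SD over 3 genes). Of these 3 genes 2 were lowest in replicate 3, against 37.8% of genes above background that were not identical.

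A lower value in replicate 3 was not limited to lymphocyte genes. All 14 measured cell cycle genes were above background, against 60.5% of all genes. All 14 were lowest in replicate 3, against 37.8% of genes above background that were not identical. Their mean difference between replicates 1 and 3 was 0.83 ± 0.36 (SD over 14 genes). Ccna2, which encodes cyclin A2, had 8.19, 7.82 and 6.74, Kif11, a motor of the spindle, had 7.24, 6.87 and 6.01, and Mcm5, a subunit of the replication helicase, had 7.86, 7.66 and 7.13. The summed signal of the cell cycle list was 3274, 2718 and 1868. The part of T cells, natural killer cells, progenitors or dividing cells in the GIMAP values was not tested, and calling the family a readout of lymphocytes rests on general knowledge of the family.

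**Figure D3:**
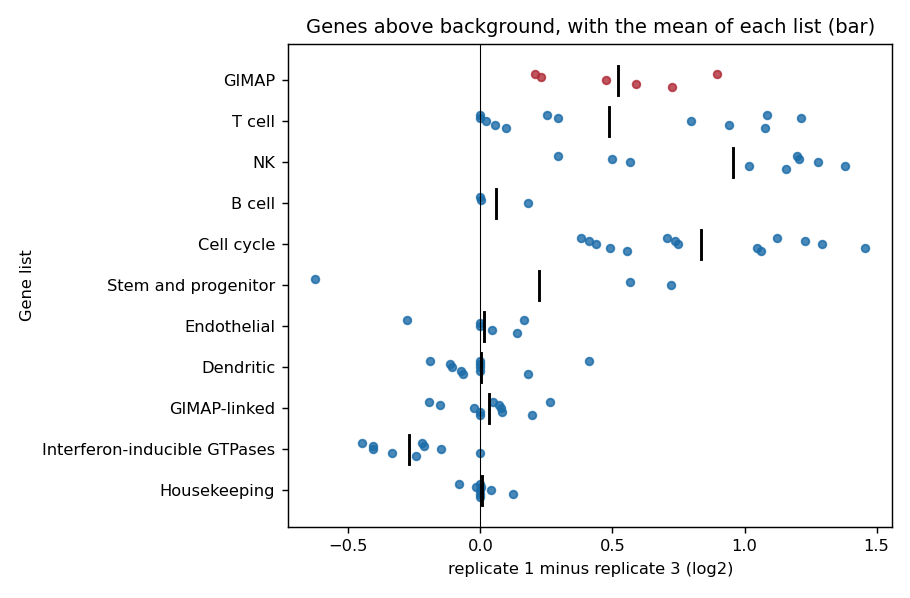
Difference of replicate 1 minus replicate 3 (log2, horizontal axis) for the genes above background of the GIMAP family (red) and of 10 gene lists (blue), with black bars at the list means. GIMAP genes (mean 0.52), T cell (0.49), NK (0.96) and cell cycle genes (0.83) lie mostly to the right of 0, dendritic and housekeeping genes on both sides of 0 and interferon-inducible GTPases (-0.27) to the left.

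Another family of immune GTPases went the opposite way. Interferon-inducible GTPases, which guard cells against intracellular pathogens, are separate from the GIMAP family and act in myeloid cells as well. Of 10 measured, 9 were above background, against 60.5% of all genes. Lowest in replicate 3 were 0 of the 9, against 37.8% of genes above background that were not identical. Their mean difference of replicate 1 minus replicate 3 was -0.27 ± 0.14 (SD over 9 genes). Gbp4 had 9.78, 9.92 and 10.19, Gbp5, which takes part in inflammasome activation, had 8.68, 8.86 and 9.09, and Gbp7 had 9.70, 9.87 and 10.04. Irgm1, which regulates the other members of its family, had 10.37, 10.40 and 10.58. Mx1 had 7.20, 7.22 and 7.20 and thus did not follow the others. The difference between the 2 families was not tested.

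Genes that the GIMAP proteins are known to bind, act on or share a survival pathway with were read from a list of their own. It held the GABARAP autophagy proteins, BCL2 family members, Gsk3b, Ctnnb1, Foxo1 and Il7r. All 11 of 11 measured were above background, against 60.5% of all genes. Of the 9 that were not identical 5 were lowest in replicate 3, against 37.8% of such genes above background. The mean difference between replicates 1 and 3 was 0.034 ± 0.13 (SD over 11 genes). Gabarapl2, the binding partner of Gimap6, had 10.61, 10.57 and 10.52. Gsk3b, a kinase that Gimap5 restrains in T cells, had 9.35, 9.37 and 9.37. The survival gene Bcl2 had 10.10, 10.01 and 9.83, which was the largest difference of the list at 0.26 units, and its relative Bcl2l1 had 8.16, 8.29 and 8.35. Il7r, the IL-7 receptor chain on which lymphocyte survival depends, had 11.63, 11.71 and 11.79, the opposite order to that of the GIMAP genes.

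The chromosome neighbours were examined next, with 5 measured protein-coding genes on each side. Of these 10 genes 6 were above background in all arrays (60.5% of all genes) and 7 were identical in the arrays (57.1%). Lowest in replicate 3 were 2 of the 10 (14.7% of all genes), so none of these counts is far from its share over all genes. The 2 are the genes next to Gimap3, Tmem176b and Tmem176a, which encode related membrane proteins found in dendritic cells and macrophages. Tmem176b had 7.83, 7.95 and 7.15 and Tmem176a had 6.89, 6.95 and 6.42. In both replicate 2 was highest, whereas in the GIMAP genes replicate 1 was highest or tied with replicate 2. Tmem176b was 0.68 units higher in replicate 1 than in replicate 3, and Tmem176a 0.47 units. Of the flanking genes 1, Tmem176b, differed by more than 0.5 units in that direction, against 2.08% of all genes above background. On the other side, Zfp775 next to Gimap8 had 5.60 in each array and Repin1, a zinc finger gene, had 7.73, 7.77 and 7.81. The next genes beyond the Tmem176 pair, Gm7932 (6.14), Aoc1 (4.28) and Doxl1 (4.15), were identical in the arrays.

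**Figure D4:**
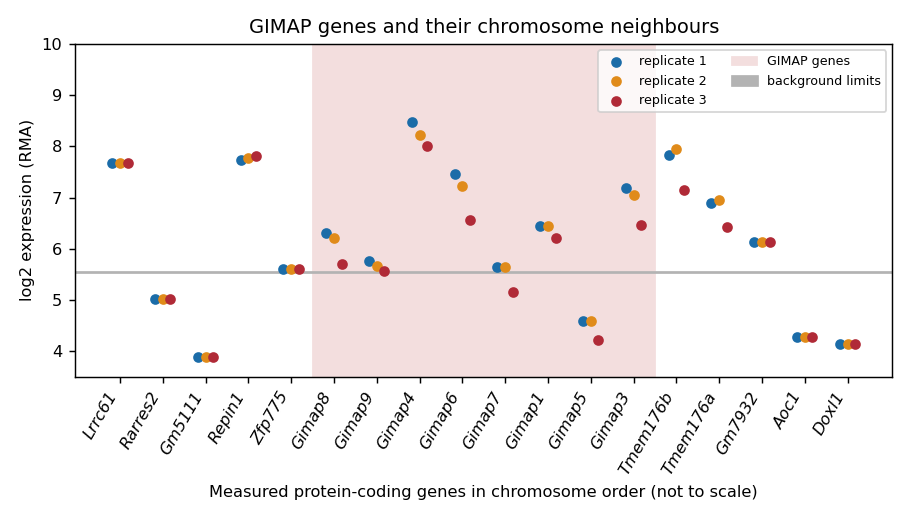
Log2 expression in the 3 arrays (vertical axis) for the 8 GIMAP genes (shaded) and 5 measured protein-coding genes on each side, in chromosome order and not to scale; points are single arrays and the grey band marks the background limits. Replicate 3 is lowest in the shaded genes and in Tmem176b and Tmem176a. The 3 points coincide in 7 of the 10 flanking genes, against 57.1% of all genes.

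Members resembled each other to different degrees across the 3 arrays. As a measure, the root mean square distance between the deviations of 2 genes from their own 3-array means was used. The closest pair was Gimap7 and Gimap8 (0.044), followed by Gimap5 and Gimap7 (0.051), and the farthest was Gimap6 and Gimap9 (0.30). Gimap3 and Gimap8 were 0.055 apart and Gimap3 and Gimap6 0.071. Chromosome neighbours were not always close, since Gimap4 and Gimap6, which lie side by side, were 0.20 apart. Gimap5, Gimap7 and Gimap9 lie under or near the background limit, where differences can be understated, so distances that involve them are uncertain.

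The mean profile of the 6 members above background, each of which spanned more than 0.2 units (11.8% of all genes above background did), deviated by 0.22, 0.083 and -0.30 units in replicates 1, 2 and 3. Of 12061 other genes above background, the 10 nearest to it lay at distances of 0.0037 to 0.012. In order they were Lig1, Sdf2l1, Arl15, Cd27, Haus4, Ccl7, Tbc1d1, Il2ra, Tk1 and Stil. Lig1 (7.14, 6.99 and 6.62) is a DNA ligase of replication and Tk1 (7.01, 6.86 and 6.51) a thymidine kinase of dividing cells. Cd27 (6.30, 6.14 and 5.77) and Il2ra (7.57, 7.46 and 7.05) encode receptors found on lymphocytes, though not only there in the case of Il2ra, and Ccl7 (10.13, 9.97 and 9.61) a chemokine of myeloid cells. For the 3 members over 0.5 units the nearest genes were Aqp9, Gpr65 and Mcm7 for Gimap6, Kcnk5, Nucb2 and Rad54l for Gimap3, and Sorl1, Dlgap5 and Bmp7 for Gimap8. With 3 arrays many genes can share a profile, so nearness is a description of these arrays only.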

How the data were processed

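Total RNA of 3 BMDC samples (150 ng each) was hybridised to Affymetrix whole-transcript arrays, per the labels' protocols. Values were deposited as log2 expression; the authors used RMA, per the submitters' processing notes. RMA corrects background, quantile normalises the arrays and summarises probes by median polish, and the array medians were 5.91, 5.91 and 5.91. Software, version and genome build are not given in the sources used here. Of 35556 probe sets, 21789 name 1 gene in the platform annotation, 1621 several and 12146 are not listed. Each gene took its probe set with the highest mean.

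Background calls, differences between arrays and nearest profiles were computed with Python (version 3.11.15) and pandas (version 2.3.3). The code was run on simulated data with planted profiles. Unlike these arrays, the simulated data were built without identical values, so the run checks the code and not the calls made here. No test was made, since the samples form 1 group. The number of arrays limits the precision. The 8 members, 11 lists with 173 genes and the letters searched in promoters were chosen with earlier results of these data known. Named were all members, the first 6 measured genes of a list or those spanning more than 0.5 log2 units, the 10 nearest genes (3 per member) and 5 neighbours on each side. Only examples of these are printed, and Cd22, Gsk3b, Il7r, Lef1, Mx1 and Zbtb46 were named outside this rule after their values were seen. Alternatives covered the limit, the scaling, the threshold and left-out arrays.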

Additional observations from a re-analysis of the deposited data

How the results depend on the processing

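The count of 6 GIMAP genes above background became 3 at the stricter receptor limit (99th percentile) and 3 with a limit of 6.31 log2 units from 46 silent tissue genes, of which 13 passed the usual limit. It was 6 with the call on the 3-array mean, and the call on every probe set is the same by construction, since each member has 1. It was 6 to 7 when 1 array was left out, with Gimap7 added without replicate 3. The mean difference between replicates 1 and 3 (0.52) was 0.49 with arrays shifted to the median of variable genes and 0.52 with housekeeping genes, 0.50 over all measured members and 0.45 to 0.58 when 1 member was left out. These scalings could turn no direction between replicates 1 and 3. The first moves that difference by 0.032 units in every gene, less than any member's difference, and the second by 0. The order of replicates 1 and 2 can depend on the first, which takes 0.0136 units off replicate 1 and 0.0035 off replicate 2. Gimap7 differed by 0.0076 units between these arrays, and Gimap1 and Gimap5 were tied. As alternatives chosen after seeing the data, the difference was 0.38 without replicate 1 and 0.14 without replicate 3, and 3 and 0 members then differed by more than 0.5 units. Beyond 1 unit 0 of 6 members differed, and beyond 0.3 units 4 did. No paired analysis was possible because the labels give only 1 group. Signals near background limit the values of Gimap5, Gimap7 and Gimap9.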
